A study of Mus musculus with 14 samples.

Results

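The 9 genes described here are commonly used as signs of reactive astrocytes: Vim, Cd44, Osmr, Serpina3n, Lcn2, Timp1, Cp, S1pr3 and Steap4. They were taken by gene symbol from a fixed list. All 9 were among the 55291 symbols of the count tables, and all 9 passed the filter on low counts, which kept 22150 genes. Astrocytes are the glial cells that feed neurons, clear transmitter and contact blood vessels. After injury or inflammation they thicken their filament skeleton, change their surface receptors and secrete protease inhibitors and metal-binding proteins, a state called reactive. Cytokines of the interleukin-6 and oncostatin M family, acting through the factor STAT3, are among its known triggers. None of the 9 genes is specific to astrocytes, since endothelial, fibroblast, ependymal and microglial cells make several of them.

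RNA was measured in dentate gyri cut from mouse slice cultures that keep the entorhinal cortex joined to the hippocampus. Slices were taken at postnatal day 4 to 5 and kept at least 18 days in a medium with horse serum, and 1 dentate gyrus gave 1 library. There were 6 libraries of C57BL/6J animals (APP+/+, wildtype) and 8 of an APP-deficient mouse line (APP-/-, APPko). Polyadenylated RNA was read after cDNA amplification. Which cultures came from the same animal is not given, and the p-values therefore rest on the scatter among cultures. Cultured slices have no blood flow and are injured by the slicing, which both genotypes share.

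The comparison asked whether the loss of the amyloid precursor protein changes gene expression in the dentate gyrus. Library totals ran from 16686909 to 31031126 counts. App itself lay between 679 and 964 CPM (counts relative to the library total, after scaling by TMM library factors) in wildtype and between 182 and 231 CPM in APPko, so no library went against its label. TMM factors were 0.976 to 1.09 except in wildtype libraries 2 (0.852) and 3 (0.847). Each count column has a header with a final letter, which is f in 3 libraries of wildtype and 7 of APPko, and m in 3 of wildtype and 1 of APPko. Xist was at 85.7 to 208 CPM in the 10 f libraries and at 1.082 to 2.22 CPM in the 4 m libraries, and the Y-linked gene Ddx3y at 0.459 to 1.63 and 127 to 152 CPM. High Xist marks female and high Ddx3y male tissue, so the letters went with sex in all 14 libraries. The shares of f and m libraries differed between the genotypes.

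No member passed the test between the genotypes over all 14 libraries. In edgeR's quasi-likelihood test with Benjamini-Hochberg adjustment over all 22150 genes, 2.35% of the genes had an adjusted p under 0.05 (0.944% higher and 1.41% lower in APPko), and 0 of 9 members did. The smallest adjusted p of the members was 0.12, for S1pr3. At an unadjusted p under 0.05 stood 3 of 9 members, with S1pr3 and Serpina3n higher and Steap4 lower in APPko, and 20.4% of all genes tested. DESeq2 also called none of the 9. The median log2 change of the members was 0.011, and that of all tested genes was -0.013. 5 of 9 members (55.6%) had positive values, against 48.3% of all genes. In bulk tissue, fewer cells of a type and less RNA per cell cannot be told apart.

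**Figure D1:**
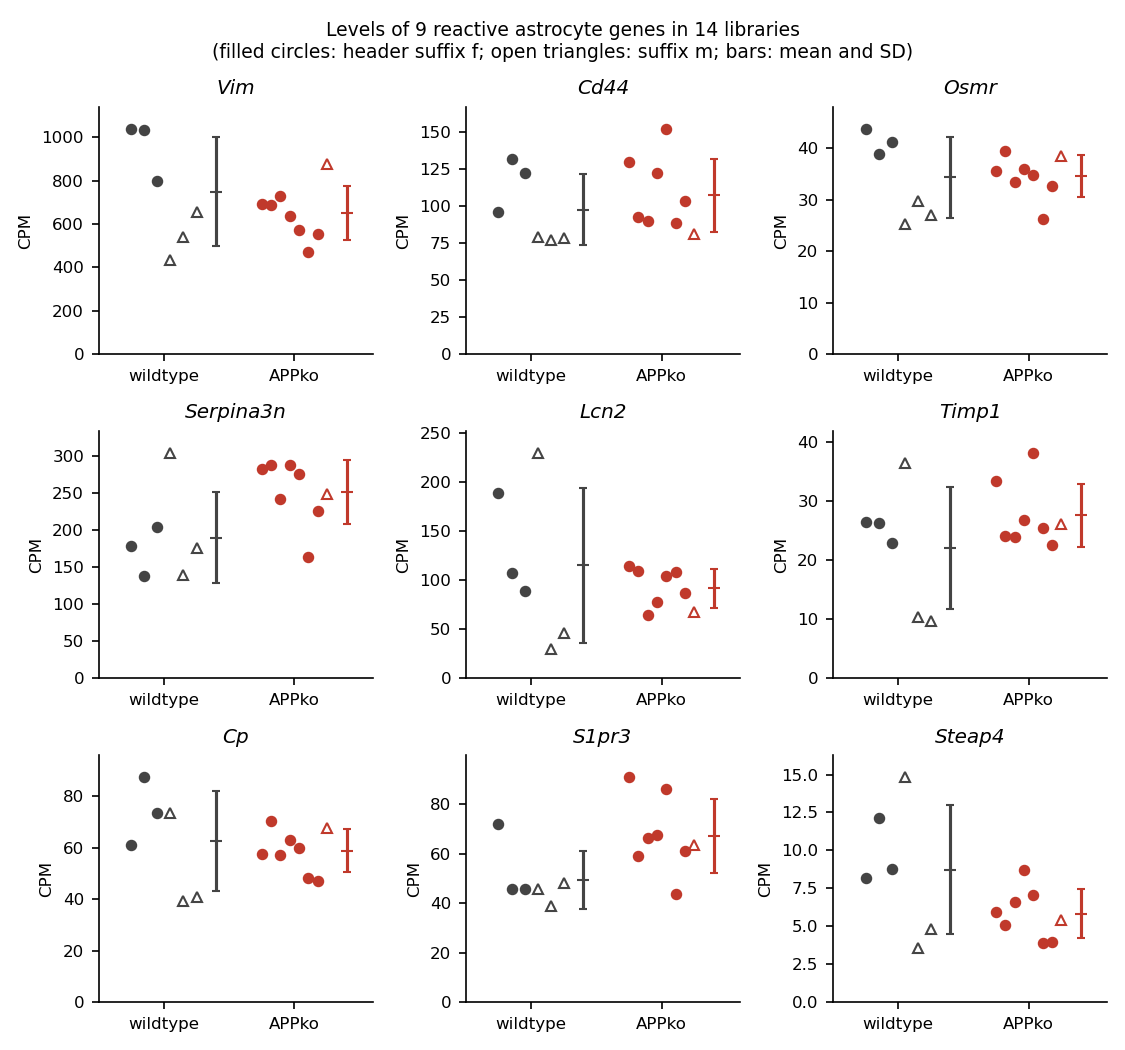
Level of each of the 9 genes in every library, as TMM-scaled CPM on a linear axis from 0, for 6 wildtype and 8 APPko libraries. Filled circles are libraries with the header suffix f, open triangles those with m, and the bars give mean and SD. For all 9 genes the ranges of the genotypes overlapped, and the SD relative to the mean was larger in wildtype.

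The members spanned a wide range of levels. Per kilobase of annotated exon sequence, Vim was highest in wildtype at 158 ± 53.1 CPM per kilobase (SD, n = 6), followed by Serpina3n at 91.9 ± 29.5 and Lcn2 at 43.8 ± 30.0. Timp1 stood at 24.9 ± 11.7, Cd44 at 14.4 ± 3.55 and S1pr3 at 11.1 ± 2.59 CPM per kilobase. At the low end were Cp at 6.55 ± 2.02, Osmr at 2.83 ± 0.652 and Steap4 at 2.76 ± 1.35 CPM per kilobase. The order of the means was the same in APPko. Serpina3n exceeded Lcn2, S1pr3 exceeded Cp and Cp exceeded Osmr in all 14 libraries. Other neighbours were less clearly apart: Vim exceeded Serpina3n in 11 of 14 libraries, Lcn2 exceeded Timp1 in 9, Timp1 exceeded Cd44 in 13, Cd44 exceeded S1pr3 in 10 and Osmr exceeded Steap4 in 12. Exon length is the union over all annotated transcripts, which lowers the value of genes with long minor transcripts.

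At a length of 100 bases, nearly all transcript sequence of the members was their own. The transcripts came from an earlier GENCODE release than the deposited annotation, and shorter lengths were not checked. Of the 100-base words in the transcripts of Vim, Cd44, Osmr, Lcn2, Timp1, S1pr3 and Steap4, none occurred in a transcript of another gene. Serpina3n belongs to a cluster of close copies on chromosome 12, and 4 of its 1965 words (0.204%) occurred in Serpina3g or the pseudogene Serpina3e-ps. Cp shares 108 exon bases (1.13%) with Hps3 on the opposite strand, and S1pr3 shares 45 (1.01%) with the long noncoding RNA Gm32834 on the opposite strand. The strand setting of the counting is not given in the sources used here.

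Vim encodes vimentin, the intermediate filament protein that astrocytes build up together with GFAP (chromosome 2, 13573927 to 13582826, GRCm38). Its lowest, median and highest levels were 433, 726 and 1035 CPM in wildtype and 470, 662 and 876 CPM in APPko. The APPko range lay inside the wildtype range. The fitted log2 change was -0.20 (SE 0.18, 95% interval -0.59 to 0.18, edgeR adjusted p = 0.58). Cd44, the surface receptor for hyaluronan (chromosome 2, 102811141 to 102901665), ran over 76.9, 87.8 and 132 CPM in wildtype and 81.3, 97.8 and 152 CPM in APPko. Its libraries overlapped almost fully, and only APPko library 5 lay above the highest wildtype library. The log2 change was 0.14 (SE 0.16, 95% interval -0.20 to 0.47, edgeR adjusted p = 0.67).

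Osmr encodes the chain of the oncostatin M receptor that pairs with gp130 (chromosome 15, 6813577 to 6874969). Its levels were 25.3, 34.4 and 43.6 CPM in wildtype and 26.3, 35.1 and 39.5 CPM in APPko. This was the member with the closest means, 34.3 ± 7.89 and 34.6 ± 4.07 CPM (SD, n = 6 and 8). The 95% interval of its log2 change ran from -0.27 to 0.29 around 0.011 (edgeR adjusted p = 0.98).

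S1pr3, a G protein-coupled receptor for sphingosine-1-phosphate (chromosome 13, 51408639 to 51422797), had the smallest p of the members. Wildtype levels were 38.8, 45.9 and 72.1 CPM, and APPko levels were 44.0, 64.9 and 90.8 CPM. 7 of 8 APPko libraries lay above the wildtype median, and 2 lay above the highest wildtype library. The fold was 1.36 in favour of APPko (log2 change 0.45, SE 0.16, 95% interval 0.12 to 0.77, edgeR adjusted p = 0.12). Wildtype library 1 held the highest wildtype value, and the next one was 48.0 CPM. Without that library the log2 change was 0.60 and S1pr3 passed (edgeR adjusted p = 0.030). It did not pass in the other 13 fits that left out 1 library, with a lowest log2 change of 0.38 without wildtype library 5.

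Serpina3n is a secreted inhibitor of serine proteases and one of the most used transcripts for reactive astrocytes (chromosome 12, 104406729 to 104414329). Wildtype libraries held 138, 177 and 303 CPM and APPko libraries 163, 262 and 287 CPM. 7 of 8 APPko libraries were above the wildtype median, but wildtype library 4 was the highest of all 14. The fold was 1.32 (log2 change 0.40, SE 0.17, 95% interval 0.054 to 0.75, edgeR adjusted p = 0.18). Without wildtype library 4 the log2 change was 0.59 and Serpina3n passed (edgeR adjusted p = 0.023). The other 13 such fits did not call it, and the lowest log2 change was 0.33 without wildtype library 2.

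Timp1, a secreted inhibitor of matrix metalloproteinases (chromosome X, 20870166 to 20874735), ran over 9.68, 24.6 and 36.6 CPM in wildtype, and its APPko levels were 22.7, 25.8 and 38.1 CPM. Wildtype libraries 5 and 6 were low at 10.4 and 9.68 CPM, and every other library was above 22 CPM. The log2 change of 0.32 had an SE of 0.24 (95% interval -0.18 to 0.82, edgeR adjusted p = 0.48). Lcn2 encodes lipocalin-2, a secreted carrier of iron-binding siderophores (chromosome 2, 32384633 to 32388252). It had the widest wildtype spread of the members, with 30.4, 98.0 and 229 CPM, a 7.52-fold range. The APPko libraries held 64.7, 95.4 and 115 CPM, a 1.77-fold range that lay inside the wildtype one. Its log2 change was -0.33 (SE 0.34, 95% interval -1.04 to 0.38, edgeR adjusted p = 0.63). With voom and quality weights, which weigh each library by its scatter, the value was 0.37 (limma adjusted p = 0.69).

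Cp encodes ceruloplasmin, the copper-containing oxidase that loads exported iron onto transferrin (chromosome 3, 19957054 to 20009145). Wildtype libraries held 39.3, 67.3 and 87.3 CPM and APPko libraries 46.9, 58.9 and 70.2 CPM. All APPko libraries lay inside the wildtype range, and the log2 change was -0.090 (SE 0.16, 95% interval -0.43 to 0.25, edgeR adjusted p = 0.81). Steap4, a membrane metalloreductase for iron and copper (chromosome 5, 7960457 to 7982213), was the lowest member by counts, with 64 to 438 counts per library. Wildtype libraries held 3.61, 8.47 and 14.8 CPM, and APPko libraries held 3.90, 5.69 and 8.74 CPM. 1 of 8 APPko libraries was above the wildtype median, and none was below the lowest wildtype library. The log2 change was -0.59 (SE 0.26, 95% interval -1.14 to -0.033, edgeR adjusted p = 0.21).

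**Figure D2:**
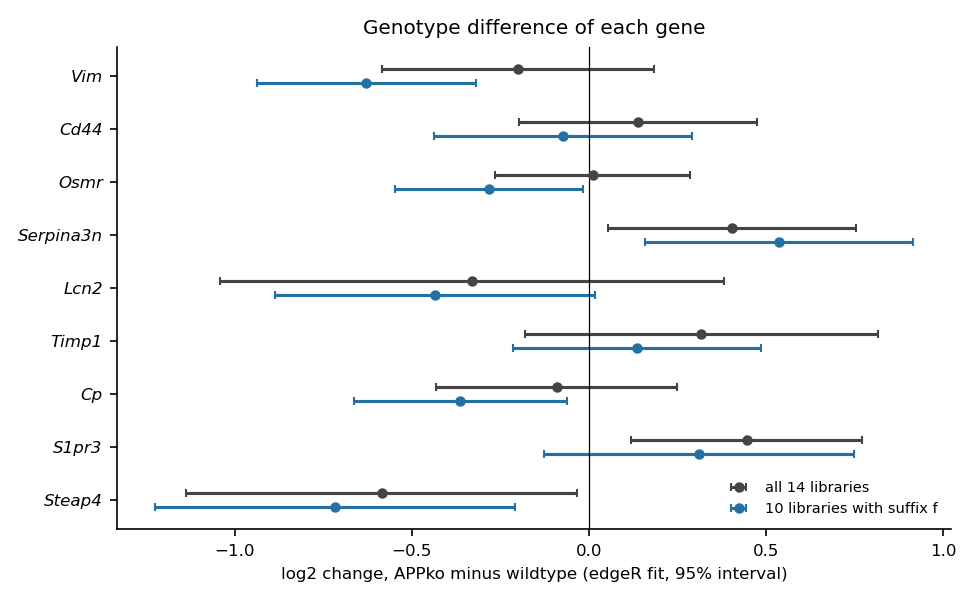
Fitted log2 change of each gene, APPko minus wildtype, with its 95% interval from edgeR, for all 14 libraries (grey) and for the 10 libraries with the header suffix f (blue). Over 14 libraries the intervals of S1pr3, Serpina3n and Steap4 did not include 0, and none of the 9 genes passed after adjustment, while in f libraries Vim passed at -0.63.

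The levels of the members varied more between wildtype than between APPko libraries. The coefficient of variation (SD over mean) was larger in wildtype for 9 of 9 members, as it was for 78.7% of all tested genes. It ran from 22.99% (Osmr) to 68.5% (Lcn2) in wildtype and from 11.8% (Osmr) to 27.8% (Steap4) in APPko. The medians over all genes were 29.3% and 19.3%. Lcn2 lay at the 91.8th percentile of this measure in wildtype and at the 55.7th in APPko. Within f libraries alone it was larger in wildtype for 4 of 9 members, against 72.2% of all genes.

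Within wildtype, no member passed a test between f and m libraries, but in 3 the libraries did not overlap. For Vim, Osmr and Cd44 the wildtype f libraries were all above the wildtype m libraries, as for 7.53% of all tested genes. For no member was it the other way round, as it was for 9.89% of all tested genes. Vim was at 799 to 1035 CPM in wildtype f libraries and at 433 to 653 CPM in wildtype m libraries. Cd44 was at 96.3 to 132 and 76.9 to 79.3 CPM, and Osmr at 38.9 to 43.6 and 25.3 to 29.8 CPM. With 3 against 3 libraries, edgeR called 7 of 20812 genes and none of these 3 (unadjusted p of 0.0046, 0.0086 and 0.0060, edgeR adjusted p of 0.34, 0.35 and 0.34 for Vim, Cd44 and Osmr). What else set the f and m cultures apart is not given in the sources used here.

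When the genotypes were compared within the f libraries, Vim was lower in APPko. The 3 wildtype f libraries held 799, 1033 and 1035 CPM, and the 7 APPko f libraries held 470 to 727 CPM with a median of 636, so the groups did not overlap, as for 6.66% of all genes in this direction. The log2 change was -0.63 (SE 0.14, 95% interval -0.94 to -0.32, edgeR adjusted p = 0.011), a 1.54-fold lower level. Among the m libraries the only APPko library was at 876 CPM, above all 3 wildtype libraries. In a fit with an interaction term the m minus f difference of the genotype effect on Vim was 1.32 on the log2 scale (edgeR adjusted p = 0.035), and 1.86% of all genes passed this test. Since APPko m is 1 library, that p takes its spread from the other groups and assumes that this library varies as they do, and without it the interaction has no value.

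**Figure D3:**
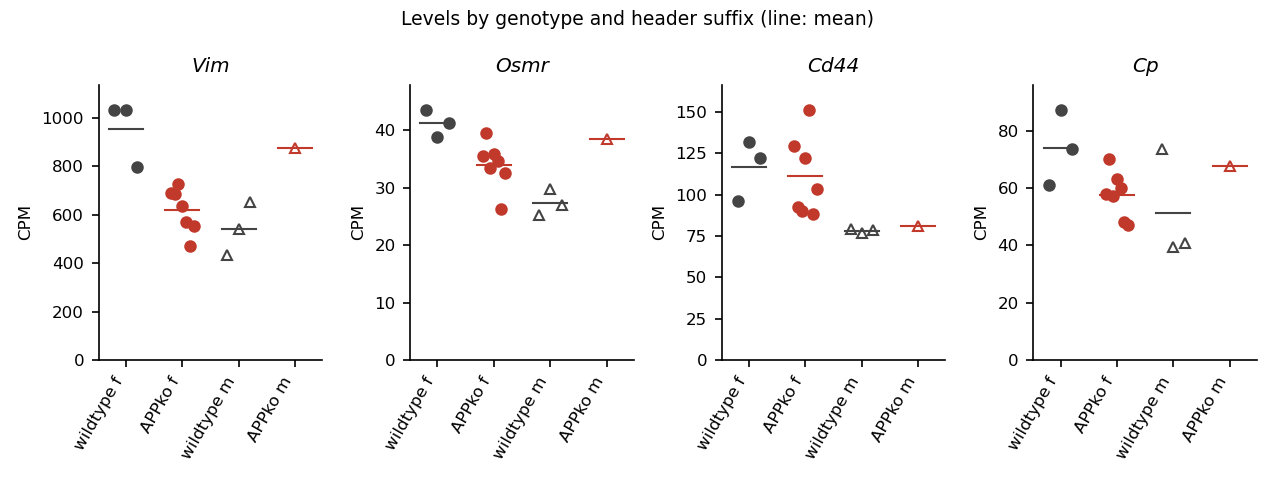
CPM of Vim, Osmr, Cd44 and Cp on linear axes from 0, split by genotype and by the f or m at the end of the column header (3 wildtype f, 7 APPko f, 3 wildtype m and 1 APPko m library). Horizontal lines are means. Vim in APPko f libraries (470 to 727 CPM) lay below all wildtype f libraries, and the APPko m library (876 CPM) lay above all wildtype m libraries.

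The f comparison called many genes: 15.6% of 23580 genes passed, with 7.1% higher and 8.47% lower in APPko. 1 of 9 members passed, so the share of members is near that of all genes. The wildtype f libraries include libraries 2 and 3, which stand apart in their TMM factors. Without TMM scaling, Vim in wildtype libraries 1, 2 and 3 was at 1052, 878 and 676 CPM, and the APPko f libraries lay between 481 and 791 CPM. The groups then overlapped, and the log2 change was -0.43 (edgeR adjusted p = 0.073). Without wildtype library 2 the value in f libraries was -0.57 (edgeR adjusted p = 0.067). The interaction had an edgeR adjusted p of 0.076 without TMM scaling, and of 0.055 and 0.080 without wildtype library 2 or 5.

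No other member passed the edgeR test in the f libraries. Serpina3n was at 173 ± 33.2 CPM in wildtype f and 251 ± 45.9 CPM in APPko f libraries (SD, n = 3 and 7, edgeR adjusted p = 0.053). Steap4 was at 9.69 ± 2.13 and 5.91 ± 1.75 CPM (edgeR adjusted p = 0.054). Each passed in 3 of 5 other scalings or tools, DESeq2 among them (adjusted p of 0.033 and 0.022). Cp was at 74.0 ± 13.1 and 57.6 ± 8.14 CPM (edgeR adjusted p = 0.094). Cp passed with voom (limma adjusted p = 0.044) and without wildtype library 1 (edgeR adjusted p = 0.012). Osmr was at 41.3 ± 2.37 and 34.0 ± 4.05 CPM (edgeR adjusted p = 0.14). S1pr3, with the smallest p over all 14 libraries, was at 54.6 ± 15.1 and 67.8 ± 16.1 CPM (log2 change 0.31, edgeR adjusted p = 0.33). Of the members, Vim alone passed the interaction test, and Osmr (0.77, edgeR adjusted p = 0.081) and Cp (0.76, edgeR adjusted p = 0.21) had the next smallest p. With the suffix as a covariate in the fit over 14 libraries 6.53% of all genes (3.24% higher and 3.29% lower in APPko) and none of the 9 members passed.

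Markers of several cell types passed in the same f libraries, in which 15.6% of all genes did. Of 16 astrocyte identity markers, 5 were lower and 1 was higher in APPko f libraries: the transcription factor gene Sox9, the glutamine synthetase gene Glul, the gap junction genes Gja1 and Gjb6 and the lipid enzyme gene Acsbg1 fell, and the sodium pump subunit gene Atp1b2 rose. Their summed level was 7023 to 8674 CPM in wildtype f and 5267 to 7808 CPM in APPko f libraries. Gfap, the other main astrocyte filament gene, was at 1535 ± 265 and 1890 ± 291 CPM there (SD, n = 3 and 7, edgeR adjusted p = 0.23). Of 16 microglia markers, Tyrobp, C1qa, C1qb, C1qc and Trem2 rose and Itgam fell, and the summed level was 942 to 1313 CPM in wildtype f and 1163 to 1949 CPM in APPko f libraries. The neuron markers Gad1 and Snap25 fell (2 of 9), as did Rarres2 (1 of 5 ependymal and choroid plexus markers tested). Of 8 oligodendrocyte lineage markers Mag rose and Pdgfra fell, and no endothelial, pericyte or fibroblast marker passed. In lists of 5 to 9 markers, 1 or 2 calls are near the share of all genes. Within f libraries, other scalings and left-out libraries were run for the 9 members alone, not for these markers. The part of these markers in the Vim difference was not tested.

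Most pairs of members varied in the same direction across libraries. Correlations were computed over the 14 libraries on log2 CPM after the mean of each genotype was subtracted, for 36 pairs, with 100000 permutations within genotypes. Neither step kept f and m libraries apart, so differences between them count in r and in p. 35 of 36 Pearson values were positive, and all libraries share their scaling factors across genes. After Benjamini-Hochberg adjustment over the 36 pairs, 4 had a Pearson adjusted p under 0.05, and no Spearman value did. Vim and Osmr had r = 0.87 and rho = 0.85 (permutation p = 0.00105 and 0.0019, adjusted 0.029 and 0.067). Without the 2 libraries farthest from the median of Vim r was 0.78, and within the 10 f libraries it was 0.67.

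The other 3 pairs joined Lcn2, Timp1, Steap4 and Cp. For each pair, the 2 libraries farthest from the median of the first gene named were left out in turn. Lcn2 and Timp1 had r = 0.88 and rho = 0.74 (permutation p = 0.0024 and 0.0105, adjusted 0.029 and 0.12), with r = 0.77 without wildtype libraries 5 and 4. Cp and Steap4 had r = 0.84 and rho = 0.73 (permutation p = 0.0026 and 0.0134, adjusted 0.029 and 0.12), with r = 0.69 without wildtype libraries 5 and 6. Timp1 and Steap4 had r = 0.84 and rho = 0.78 (permutation p = 0.0032 and 0.0055, adjusted 0.029 and 0.0995), with r = 0.77 without wildtype libraries 6 and 4. Wildtype libraries 5 and 6 were the lowest wildtype libraries in all 4 genes, and wildtype library 4 was the highest in Lcn2, Timp1 and Steap4 and near library 3 and below library 2 in Cp. Within f libraries, which hold none of these 3, r was 0.43 for Lcn2 with Timp1, 0.69 for Cp with Steap4 and 0.44 for Timp1 with Steap4. Serpina3n and Vim had the only negative Pearson value, -0.17, with rho = 0.0022. The 4 m libraries are too few for a value of their own. Leaving out the 2 libraries farthest by the first gene named also moved pairs that had not passed. Osmr with Cp went from 0.55 to 0.82, Vim with Cp from 0.46 to 0.81, Osmr with Timp1 from 0.28 to 0.78 and Osmr with Lcn2 from 0.16 to 0.76, while Lcn2 with Steap4 fell from 0.66 to 0.26 and Lcn2 with Cp from 0.61 to 0.36. Whether the members form separate groups was not tested.

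**Figure D4:**
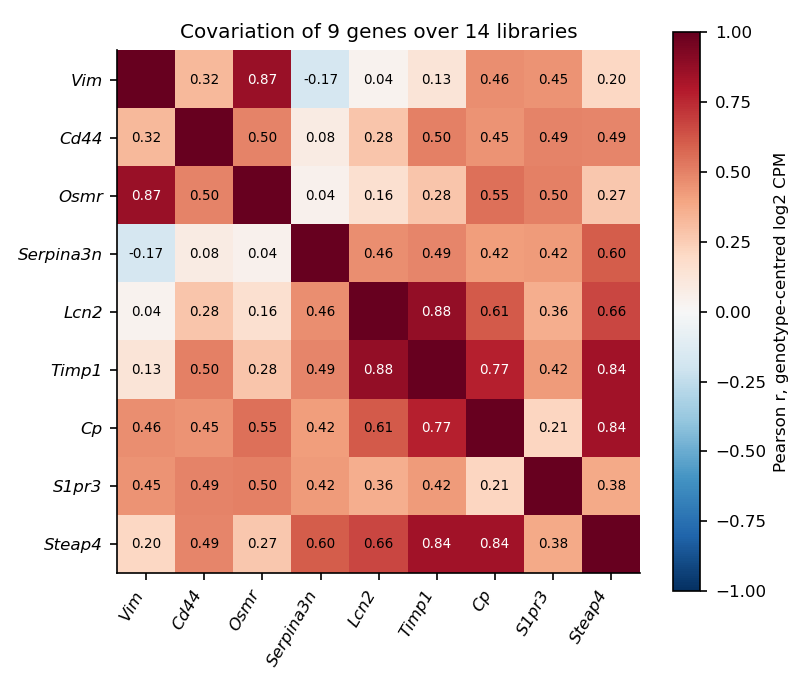
Pearson r between the 9 genes over 14 libraries (colour scale from -1 to 1), computed on log2 CPM after the mean of each genotype was subtracted. Values over all libraries were 0.87 for Vim with Osmr, 0.61 to 0.88 among Lcn2, Timp1, Cp and Steap4, and -0.17 for Vim with Serpina3n.

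Among 13688 other protein-coding genes with a mean of at least 1 CPM, the closest patterns to each member over the 14 libraries, by the same centred Pearson r, were found as a description. For Vim these were Adam9 (0.98), a membrane metalloprotease, Prkd3 (0.97), a protein kinase D, and Nab1 (0.93). Osmr went with Itih5 (0.97), Fn1 (0.95), which encodes the matrix protein fibronectin, and Fgf2 (0.92), a growth factor. Lcn2 went with the member Timp1 (0.88), Asxl1 (0.87) and the complement gene C3 (0.87). Timp1 went with Lcn2 (0.88), the myosin gene Myo5b (0.88) and Rab39 (0.87). Cp was closest to Fcgr2b (0.95), an inhibitory antibody receptor, Wls (0.94), which carries Wnt proteins to the surface, and Dgkb (0.92). Steap4 was closest to Gstm2 (0.89), Wls (0.87) and Ascc1 (0.85). Serpina3n went with Vps35l (0.91), Dpysl3 (0.88) and Cyb5r3 (0.88), S1pr3 with Dennd2a (0.87), Dus1l (0.86) and Cavin1 (0.85), and Cd44 with Slc26a3 (0.88), Tnfrsf11b (0.88) and Cct3 (0.84). None of these genes passed between the genotypes.

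Since several members covaried, the RefSeq promoter windows of the 9 genes (GRCm38.p6, 250 bases before to 50 after the start site, 10 windows because Cp has 2) were searched on both strands for motifs of 3 factors active in reactive cells. These were TTCNNNGAA for STAT factors, TGANTCA for AP-1 and a narrow form of the NF-kB consensus, called the NF-kB pattern here. Other forms of that consensus were not searched for, so a window without the NF-kB pattern may still hold another form. Of 32851 mouse windows 8.30% held the STAT pattern, 7.81% the AP-1 pattern and 0.411% the NF-kB pattern. The STAT pattern was found in Steap4 alone, the AP-1 pattern in Osmr and in 1 window of Cp, and the NF-kB pattern in none of the 10. Both AP-1 pattern matches read TGATTCA, with T at the open position N. A narrower pattern that allows only C or G there would match neither. The covarying pair Cp and Steap4 shared none of the 3 patterns in these windows, and a match is a description of the letters, not a site. The matches of this pair are shown with up to 30 bases on each side, in the direction of the gene, with the pattern in capitals. They begin 116 bases before the start site in Steap4 (chr5:7960326-7960394, plus strand) and 177 bases before it in Cp (chr3:19956847-19956913, plus strand).
Steap4: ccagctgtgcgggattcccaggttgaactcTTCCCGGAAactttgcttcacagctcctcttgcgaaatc
Cp: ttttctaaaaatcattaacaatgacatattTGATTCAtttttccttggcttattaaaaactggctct

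The remaining reactive genes of the commonly used sets were compared with the members by count. Of 4 other genes raised in reactive astrocytes of any kind, none passed: Gfap was at 1581 ± 216 CPM in wildtype, against 1917 ± 280 CPM in APPko libraries (SD, n = 6 and 8, edgeR adjusted p = 0.21), and the small heat shock protein gene Hspb1 at 15.6 ± 9.50 and 28.0 ± 7.80 CPM (edgeR adjusted p = 0.083). The median log2 change of these 4 was 0.64. Of 12 genes of the inflammatory set often called A1, Serping1, a complement inhibitor, rose from 18.7 ± 6.31 to 32.8 ± 5.84 CPM (log2 change 0.81, edgeR adjusted p = 0.030), and the set's median was 0.27. Of 12 genes of the set called A2, S100a10, an annexin partner, rose from 73.6 ± 19.2 to 117 ± 25.0 CPM (log2 change 0.67, edgeR adjusted p = 0.036), and the median was 0.42. Serping1 passed in 7 and S100a10 in 3 of the 14 fits without a single library. Within f libraries, where 15.6% of all genes passed, none of the 4 other genes did. Of the A1 set Serping1 alone was called there, higher in APPko. Of the A2 set Clcf1 was higher and B3gnt5 lower there, and S100a10 did not pass (log2 change 0.41, edgeR adjusted p = 0.12).

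Genes that act with the receptors were next. Of 20 genes of interleukin-6 family signalling, 16 were tested over all 14 libraries and none passed (median log2 change 0.11). The ligand genes Osm, Il6, Cntf and Il11 were below the filter, with at most 16 counts in any library. Il6st, which encodes gp130, was at 54.1 ± 7.86 CPM in wildtype libraries and 58.3 ± 8.02 CPM in mutant libraries (edgeR adjusted p = 0.64), Stat3 at 60.3 ± 16.9 and 75.0 ± 8.65 CPM (edgeR adjusted p = 0.23), and the feedback inhibitor Socs3 at 2.94 ± 0.780 and 4.27 ± 1.40 CPM (edgeR adjusted p = 0.17). Jak2, a kinase of these receptors, had the smallest p, with 33.7 ± 4.14 and 28.1 ± 2.45 CPM (edgeR adjusted p = 0.14). In f libraries, where 15.6% of all genes passed, Il11ra1 was higher and Lifr and Jak2 were lower in APPko (1 and 2 of 17 tested there). Of 11 tested sphingosine-1-phosphate genes none passed over all 14 libraries (median 0.27), while in f libraries Spns2 was higher and Sgpp1 was lower in APPko. Sgpl1, the lyase that degrades the ligand, was at 35.0 ± 4.27 and 42.3 ± 3.73 CPM (edgeR adjusted p = 0.12), and S1pr1 at 68.5 ± 9.70 and 67.6 ± 19.3 CPM (edgeR adjusted p = 0.97).

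Of the 16 tested genes for hyaluronan and CD44 partners, Hapln4, a hyaluronan link protein, rose from 13.8 ± 3.39 to 23.2 ± 6.37 CPM (log2 change 0.75, edgeR adjusted p = 0.043), and the median of the list was -0.17. Of 15 metalloproteinase and inhibitor genes the membrane protease gene Adam10 fell from 153 ± 36.6 to 110 ± 7.72 CPM (log2 change -0.49, edgeR adjusted p = 0.044), with a list median of 0.17. Of 15 tested iron genes, Fth1, the ferritin heavy chain, rose from 3206 ± 779 to 4877 ± 721 CPM (log2 change 0.605, edgeR adjusted p = 0.043), with a list median of 0.069. Slc22a17, described as a receptor for lipocalin-2, was at 142 ± 32.1 and 194 ± 23.8 CPM (edgeR adjusted p = 0.071). Each of Hapln4, Adam10 and Fth1 passed in 3 of the 14 fits without a single library. Of the 11 other filament genes none passed over all 14 libraries: Plec, a linker of filaments, was at 14.8 ± 6.31 and 24.6 ± 2.63 CPM (edgeR adjusted p = 0.066), and the neurofilament gene Nefm at 105 ± 44.1 and 66.7 ± 16.0 CPM (edgeR adjusted p = 0.082). In f libraries, where 15.6% of all genes passed, Plec was higher (log2 change 1.31), and Nefl (-0.78) and Nefm (-0.90) were lower in APPko. In the hyaluronan, metalloproteinase and iron lists 1, 3 and 3 genes were called higher there, and 2, 1 and 1 lower. Of 10 other serpins of the cluster 4 were tested and none passed, with summed levels of 1.70 to 6.08 CPM over all 14 libraries.

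Markers show which cells the dissected tissue held. Astrocyte identity markers were abundant, with summed levels of 5828 to 8674 CPM in wildtype and 5267 to 7808 CPM in APPko. Only Atp1b2 passed, 1 of 16, and it rose from 76.8 ± 27.2 to 141 ± 21.2 CPM (log2 change 0.87, edgeR adjusted p = 0.029). Most of the list went the other way: 6 of 16 had positive values, and the median log2 change was -0.13. At an unadjusted edgeR p under 0.05, 1 was higher and 4 were lower. Of 16 microglia markers 2 rose, the signalling adaptor gene Tyrobp from 54.7 ± 27.8 to 115 ± 19.7 CPM (edgeR adjusted p = 0.028) and the complement gene C1qb from 123 ± 63.6 to 233 ± 45.0 CPM (edgeR adjusted p = 0.047). Of the 14 fits without a single library, Atp1b2 passed in 8, Tyrobp in 7 and C1qb in 3, and C1qb did not pass with total counts alone (edgeR adjusted p = 0.057). The summed levels of the microglia markers were 942 to 1573 CPM in wildtype and 1163 to 1949 CPM in APPko. Endothelial markers were low, at 48.8 to 65.9 CPM in wildtype and 42.4 to 63.6 CPM in APPko, and most of that sum was Slco1c1 (34.6 ± 5.64 and 25.5 ± 7.26 CPM). Cldn5, Ly6c1 and Tie1 were below 1 CPM in the wildtype mean.

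Pericyte and fibroblast markers summed to 124 to 241 CPM in wildtype and 128 to 194 CPM in APPko, with none of 9 tested past the threshold (median log2 change 0.017). Pdgfrb, with the smallest p, was at 4.37 ± 1.77 and 7.23 ± 1.24 CPM (edgeR adjusted p = 0.069). Most of the sum was Rgs5, at 122 ± 37.1 and 92.8 ± 17.5 CPM (edgeR adjusted p = 0.18). Ependymal and choroid plexus markers summed to 26.2 to 96.0 and 36.4 to 47.7 CPM, nearly all of it Rarres2. Foxj1 was at 0.758 ± 0.604 and 0.662 ± 0.227 CPM, Tmem212 had at most 7 counts in a library, and none of 5 tested passed. Folr1 had the smallest p of that list (edgeR adjusted p = 0.20). Of 9 neuron and 8 oligodendrocyte lineage markers none passed, with Gad1 (edgeR adjusted p = 0.11) and Pdgfra (edgeR adjusted p = 0.47) at the smallest p. The part of other cell types in the levels of the 9 genes was not tested.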

How the data were processed

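The authors deposited unnormalized counts for each gene symbol. The submitters' processing notes name featureCounts 2.0.1, STAR 2.7.8a and cutadapt 3.5, and the mouse build GRCm38 (mm10). How strand, multi-mapping reads and duplicates were handled is not stated there. The gene annotation (other values: positions) was deposited by the authors, and its file header names GENCODE M25. 107 symbols stand for more than 1 locus, none of them a member. Reads carry no molecular identifiers. All 43 pairs of libraries within a genotype differed by more than sampling noise (lowest chi-square per degree of freedom 8.66).

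Groups came from the titles. Genes were kept by edgeR's filter by genotype, scaled by TMM and tested by edgeR's quasi-likelihood test (robust, no covariate) with Benjamini-Hochberg adjustment and a threshold of 0.05. No member was left out by the filter, so the permutation test planned for such members was not needed. CPM uses TMM-scaled totals, log2 CPM a prior count of 2, and ± values are SDs. R 4.3.3, edgeR 4.0.16, limma 3.58.1 and DESeq2 1.42.0 were used, and the procedure was tested on simulated data. It called 31.3% of 67 genes changed 1.5-fold, 56.7% of 67 changed 2-fold and 90.9% of 66 changed 4-fold, with 5 false calls. A change of 1.5-fold could thus be missed more often than found.

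The members and lists were chosen with earlier results of these data known. Named genes are the 9 members, App, the gene with the smallest p and up to 4 genes past the threshold in each list, and the 3 closest patterns per member. Gfap, Il6st, Stat3, Socs3, S1pr1, Slc22a17, Nefm, Slco1c1, Foxj1, Cldn5, Ly6c1, Tie1, Tmem212, Rarres2 and Rgs5 were added after their values were seen. So were the sex-linked genes and the list genes named as called in f libraries. Alternatives were other scalings, tools and filters, the replicate number as a block, a covariate for the header suffix, the f libraries on their own and libraries left out. The alternatives within f libraries and for the interaction were added after the data were seen.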

Additional observations from a re-analysis of the deposited data

Results flagged for a closer look

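S1pr3 in wildtype library 1 (72.1 CPM) lay far above the other 5 wildtype libraries, the next of which held 48.0 CPM: the gap was 0.722 of the whole range, past the limit of Dixon's test for 6 values. It was the only such value in 18 groups checked (9 genes in 2 genotypes), and chance gives about 1 in 20.

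For Vim, the m minus f difference of the genotype effect was 1.32 on the log2 scale (edgeR interaction test, adjusted p = 0.035). The APPko f libraries were lower than the wildtype f libraries, and the APPko m library was higher than all 3 wildtype m libraries. With 1 APPko m library the test borrows its spread from the other groups. The adjusted p was 0.076 without TMM scaling, 0.055 without wildtype library 2 and 0.080 without wildtype library 5.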

How the results depend on the processing

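Over all 14 libraries, none of the 9 members passed under 3 other scalings, 2 other tools and 2 other filters, though counts over all genes moved widely. In APPko 209 genes were higher and 312 lower. Lower counts were 119 with total counts alone, 173 with voom and 170 with a filter of 1 count in any library, and with each of these 0 list genes were lower. DESeq2 gave 749 higher and 1052 lower (21 and 8 list genes, against 7 and 1). The replicate block gave 10 and 11 (0 and 0 list genes) and no member. The suffix covariate gave 718 and 728 (15 and 3), f libraries 1674 and 1998 (19 and 20, and 1 member, Vim), and leaving out wildtype 2 and 3 together 19 and 16 (0 and 0). Leaving out 1 library gave 22 to 735 higher and 16 to 701 lower genes, 0 to 15 and 0 to 6 list genes, 0 to 1 members higher (Serpina3n without wildtype 4, S1pr3 without wildtype 1) and 0 lower. Directions turned in Cp (0.029 with total counts, 0.13 with voom, 0.14 without wildtype 2 and 3), Lcn2 (0.37 with voom, 0.031 with the block), Cd44 (-0.038 with the covariate, -0.072 in f libraries, where total counts gave 0.14) and Osmr (-0.067 with the covariate, -0.28 in f libraries). Without 1 library Cp ran from -0.19 to 0.028, Osmr from -0.065 to 0.11 and Cd44 in f libraries from -0.20 to 0.016. The median log2 change of the members also moved. It ran from -0.28 to 0.32 over 11 other settings, and from -0.045 to 0.11 without 1 library. In f libraries it was -0.28, and that of all genes was 0.048. The cause of these shifts was not tested. Replicate numbers are those of the titles (the column headers restart at 1 for the m libraries) and did not pair the samples: same-numbered libraries had correlations of -0.34 to 0.19, and 1 of 6 numbers matched best with its own. Steap4 had the fewest counts of the members, 64 to 438 per library.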
